A study of Homo sapiens with 4 samples.

Results

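The aryl hydrocarbon receptor genes described here are 7 of the 19775 genes on the array: the receptor AHR, its partner ARNT, the feedback genes AHRR and TIPARP, and the enzymes CYP1A1, CYP1A2 and CYP1B1. Their 17 probe sets, a probe set being a group of short probes for 1 transcript, were taken by gene symbol from the platform annotation. The genes were chosen by name with the values of these arrays known, among them the low CYP1A1 signal in NCI-H358 cells with CHST11 and the higher target gene signals in NCI-H358, so their values are given as a description and without a test. The study measured RNA on 4 Affymetrix arrays, 1 in each of 4 groups: NCI-H358 cells with a CHST11 vector, NCI-H358 cells with an empty vector, A549 cells with a CHST11 vector and A549 cells with an empty vector. NCI-H358 is a human bronchioloalveolar carcinoma line and A549 a human lung adenocarcinoma line. All 4 cultures had been transduced and kept under antibiotic selection for 2 weeks, controls included, and the labels do not say whether they were clones or mixed populations. CHST11 is a sulfotransferase of the Golgi that acts on chondroitin chains.

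AHR is a ligand-activated transcription factor of the bHLH-PAS family that waits in the cytoplasm on the chaperone HSP90. Ligands such as the aromatic hydrocarbons of tobacco smoke or metabolites of tryptophan send it to the nucleus, where it pairs with ARNT and binds short DNA elements with the core GCGTG. In airway epithelium the pair is best known for inducing CYP1A1 and CYP1B1, which oxidise these hydrocarbons, and for inducing its own brakes AHRR and TIPARP.

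With 1 array in a group there was no spread between cultures, and the number of arrays limits the precision. As a gauge of measurement error, the log2 ratio of CHST11 over empty vector differed between probe sets of the same gene with an SD of 0.173 in NCI-H358 and 0.158 in A549. For the log2 difference between the cell lines this SD was 0.503. A probe set counted as measured in a line when either of the line's 2 arrays reached a signal of 27, the 60th percentile of the table. Median signals of the arrays lay between 15.9 and 16.31. The CHST11 probe set 219634_at had signals of 1058 with the CHST11 vector and 220.1 with the empty vector in NCI-H358, and of 343.5 and 129.0 in A549, while its other probe sets stayed between 0.897 and 1.1 times the empty vector signal. All 5 epithelial markers were measured in both lines, with summed signals from 18250 to 19500, and all 5 were at least 2-fold apart between the lines. EPCAM (31.9-fold), KRT19 (20.3-fold) and CDH1 (4.69-fold) were higher in NCI-H358, and KRT8 (2.6-fold) and KRT18 (2.17-fold) lower. Of the leukocyte markers, 0 of 3 were measured in NCI-H358 (summed signals 38.63 and 40.36) and 2 of 3 in A549 (68.73 and 55.51), and the common leukocyte antigen PTPRC was under the filter on all 4 arrays. Of the 5 fibroblast and the 5 endothelial markers, 1 each was measured, with summed signals from 192.9 to 216.8 and from 73.81 to 81.72.

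The short core of the elements that AHR binds can be looked for in the DNA just upstream of the members' starts. Such a search shows neither whether AHR binds a match nor whether elements lie further away. RefSeq windows were used for 6 of the 7 genes, the CYP1B1 window being not analysed here, and the 250 bases before each start were searched for the core GCGTG on either strand (CACGC on the printed strand). The core was present before at least 1 start of 3 genes, CYP1A1, AHRR and TIPARP, and not in these windows of AHR, ARNT and CYP1A2. By window, 4 of the members' 9 held it, with 2 of the 3 TIPARP windows among those without. Of all 35116 RefSeq windows of this length, 32.2% held it, and GCGTG is also 1 form of the core bound by hypoxia-inducible factors. The 3 windows, at the first start of each gene, are shown because they belong to genes whose signals differed between the lines. Capitals mark the core on either strand, and the last base printed is the one before the start of transcription. The core begins 57 bases before the CYP1A1 start, 30 before the AHRR start, and 208 and 142 before the TIPARP start. The windows are CYP1A1, GRCh38.p14 chr15:74725529-74725778, minus strand, AHRR, chr5:321464-321713, plus strand, and TIPARP, chr3:156674340-156674589, plus strand.
CYP1A1: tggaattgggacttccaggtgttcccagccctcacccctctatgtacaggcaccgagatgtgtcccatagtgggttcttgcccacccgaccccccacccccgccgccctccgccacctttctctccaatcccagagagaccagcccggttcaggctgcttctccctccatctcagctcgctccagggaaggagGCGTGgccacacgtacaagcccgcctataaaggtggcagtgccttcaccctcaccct
AHRR: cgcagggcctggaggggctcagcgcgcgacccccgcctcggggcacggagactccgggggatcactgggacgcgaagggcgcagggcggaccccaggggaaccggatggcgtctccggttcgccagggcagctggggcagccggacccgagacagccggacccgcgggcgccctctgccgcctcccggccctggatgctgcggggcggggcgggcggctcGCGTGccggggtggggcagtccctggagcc
TIPARP: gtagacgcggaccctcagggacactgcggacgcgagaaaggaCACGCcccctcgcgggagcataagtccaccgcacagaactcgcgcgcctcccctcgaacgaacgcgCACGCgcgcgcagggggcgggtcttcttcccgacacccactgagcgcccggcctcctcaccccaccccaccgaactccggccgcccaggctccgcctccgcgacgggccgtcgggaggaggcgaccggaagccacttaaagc

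Of the 5 member target genes, 4 were at least 2-fold higher in NCI-H358, where 10.9% of 12271 measured genes were. With the filter at the 75th percentile, 2 were. Of 14 other AHR target genes measured, 4 were at least 2-fold higher and 5 at least 2-fold lower. CYP1B1, AHRR, TIPARP and CYP1A1 had signals at least 2.84-fold higher in NCI-H358 than in A549 by the probe set that stands for each gene. CYP1A2 was at least 1.44-fold, AHR 1.15-fold and ARNT 1.2-fold higher. Of the 7 genes measured in NCI-H358 and the 4 measured in A549, CYP1A1 in NCI-H358 alone differed at least 1.5-fold between the vectors. It was 1.95-fold lower with CHST11, and 0.272% of 11395 measured genes were at least 1.5-fold lower there. The 7 genes are taken in turn below, the receptor and partner first.

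AHR has 1 probe set. Its signal was 147.0 with CHST11 and 131.8 with the empty vector in NCI-H358, and 114.6 with CHST11 and 127.6 with the empty vector in A549. The NCI-H358 arrays were both above the A549 arrays, by a small margin. The log2 ratio of CHST11 over empty vector was 0.16 in NCI-H358 and -0.16 in A549, each within the SD between probe sets of that line. The log2 difference of 0.20 between the lines was also within its gauge, and 61.6% of measured genes lay below it.

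ARNT, the obligate partner of AHR and also of the hypoxia-inducible factors, has 7 probe sets, of which 3 were measured. The brightest, 218221_at, read 122.5 and 107.6 in NCI-H358 with CHST11 and with the empty vector, and 91.08 and 101.2 in A549. Probe set 218222_x_at read 77.6 and 72.86 in NCI-H358 against 73.7 and 63.1 in A549, where the suffix x marks probes that can also bind other transcripts. Probe set 230619_at read 50.96 and 51.8 in NCI-H358 against 50.21 and 49.01 in A549. On the first and last of these the lines did not overlap, and on the second they did. The log2 differences between the lines were 0.26, 0.14 and 0.05. For the vector, the 3 log2 ratios ran from -0.02 to 0.19 in NCI-H358 and from -0.15 to 0.22 in A549, so they had no common sign in either line. The other 4 ARNT probe sets stayed under the filter, at 3.406 to 14.66.

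CYP1A1, the main hydrocarbon hydroxylase of the lung, has 1 probe set. It read 54.95 in NCI-H358 with CHST11 and 107.0 with the empty vector. In A549 it read 15.32 with CHST11 and 22.12 with the empty vector, both under the filter. The 4 arrays thus stood in the order NCI-H358 empty vector, NCI-H358 CHST11, A549 empty vector, A549 CHST11. In NCI-H358 the log2 ratio of -0.96 was 1.95-fold lower with CHST11 and several times the SD between probe sets, although no second CYP1A1 probe set could be set beside it. It was the lowest but 1 among 11395 measured genes. At least 1.5-fold lower in this pair of arrays were 0.272% of genes, and 0.287% of the 3835 genes whose signal was within 2-fold of CYP1A1's. Since CYP1A1 was chosen for this ratio, nothing is read from these shares. No fold is given in A549, where the floor of 16.14 and the filter lay above 1 or both arrays. Between the lines, CYP1A1 was at least 2.84-fold higher in NCI-H358 with A549 raised to the filter. The bound was 2.04-fold between the CHST11 arrays and 3.96-fold between the empty vector arrays.

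**Figure D1:**
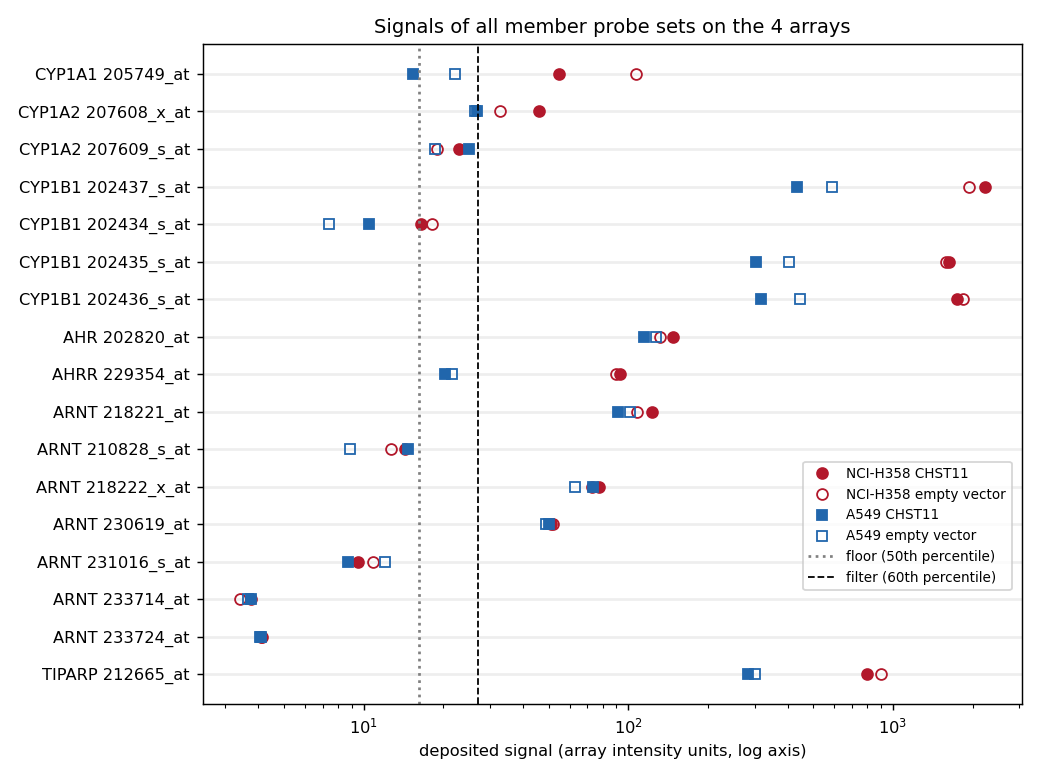
Deposited signal (log axis) of all 17 member probe sets, 1 point per array, with circles for NCI-H358 and squares for A549, filled for CHST11 and open for the empty vector. The 3 measured CYP1B1 probe sets, AHRR, TIPARP and CYP1A1 show both circles to the right of both squares, while AHR and ARNT points lie close together, and CYP1A1 shows the widest gap between filled and open circle among measured probe sets.

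CYP1A2, the caffeine and arylamine oxidase of liver, lies beside CYP1A1 on chromosome 15 with 0 RefSeq genes between them. Its probe set 207608_x_at read 46.08 with CHST11 and 32.76 with the empty vector in NCI-H358, against 26.74 and 26.43 in A549. The 2 NCI-H358 arrays were above the filter and the A549 arrays just under it. The log2 ratio in NCI-H358 was 0.49, of the opposite sign to that of CYP1A1 and under 1.5-fold. The other CYP1A2 probe set, 207609_s_at, stayed under the filter at 18.61 to 24.98 with the lines overlapping. The suffixes x and s mark probes that can be shared with other transcripts, so the CYP1A2 values are uncertain.

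CYP1B1, which hydroxylates aromatic hydrocarbons and oestradiol, has 4 probe sets, 3 of them measured. All carry the suffix s, so the same doubt on shared probes holds for their values. Probe set 202437_s_at read 2232 with CHST11 and 1940 with the empty vector in NCI-H358, against 435.1 and 586.1 in A549. Probe set 202436_s_at read 1751 and 1837 in NCI-H358, against 318.2 and 447.3 in A549. Probe set 202435_s_at read 1635 and 1586 in NCI-H358, against 305.1 and 406.5 in A549. On all 3 the lowest NCI-H358 array was far above the highest A549 array, and within A549 the CHST11 array was the lower one. The lines differed 4.12-fold, 4.75-fold and 4.57-fold on these probe sets. The difference on 202437_s_at was 5.13-fold between the CHST11 arrays and 3.31-fold between the empty vector arrays.

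For the vector, the CYP1B1 log2 ratios in A549 were -0.43, -0.49 and -0.41, in the same order, all beyond the SD of 0.158 and none at 1.5-fold. In NCI-H358 they were 0.20, -0.07 and 0.04, with no common sign. Of 11448 genes measured in A549, 1.75% lay below CYP1B1, and whether its ratio differed between the lines was not tested. In the same pair of A549 arrays a list of genes with long mRNAs lay low. Of its 23 measured genes 22 were below 0 and 17 were at least 1.5-fold lower, with a median log2 ratio of -0.69, against 0.12 in NCI-H358. The 7 genes of the mitochondrial genome had a median of 0.73 in A549. The lengths of mRNAs were not used here, and the part of that shift in the CYP1B1 ratio was not tested. The last CYP1B1 probe set, 202434_s_at, was under the filter on all 4 arrays, at 16.48 and 18.13 in NCI-H358 and 10.52 and 7.411 in A549.

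AHRR, the repressor that competes with AHR for ARNT, has 1 probe set. It read 93.33 with CHST11 and 90.15 with the empty vector in NCI-H358, against 20.26 and 21.64 in A549. The A549 arrays were under the filter, and AHRR was at least 3.4-fold higher in NCI-H358. Its vector log2 ratio in NCI-H358 was 0.05, within the SD between probe sets.

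TIPARP, a mono-ADP-ribosyltransferase that modifies AHR and damps its activity, has 1 probe set. It read 798.9 with CHST11 and 901.8 with the empty vector in NCI-H358, against 283.8 and 302.1 in A549. The lines did not overlap and differed 2.9-fold, by 2.82-fold between the CHST11 arrays and 2.99-fold between the empty vector arrays. The vector log2 ratios were -0.17 in NCI-H358, just beyond the SD between probe sets, and -0.09 in A549.

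**Figure D2:**
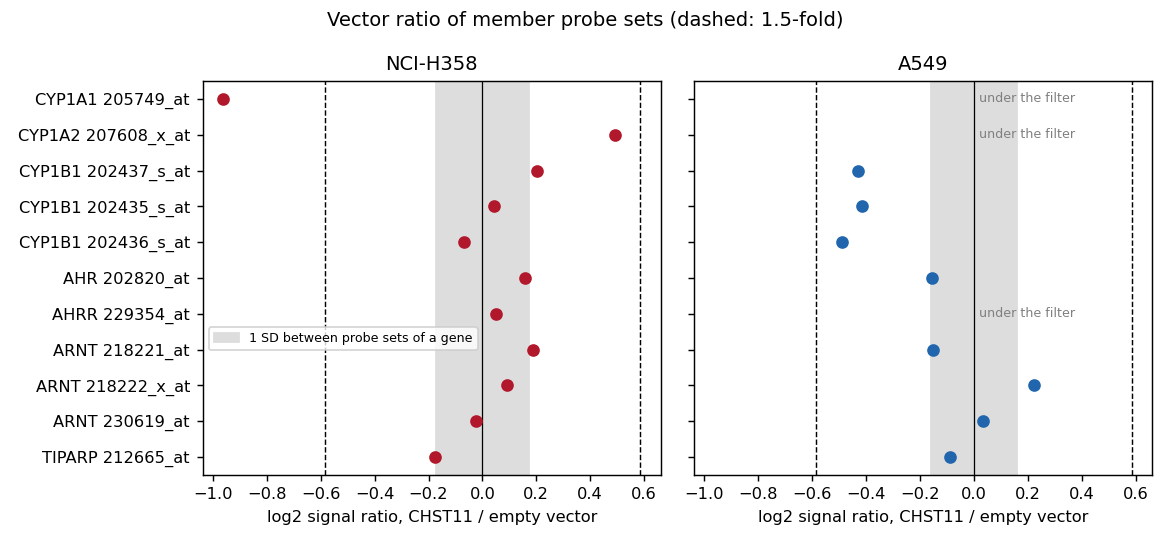
Log2 signal ratio of CHST11 over empty vector for the 11 probe sets measured in NCI-H358 (left) and the 8 of them measured in A549 (right), with the SD between probe sets of a gene in grey and dashed lines at 1.5-fold. CYP1A1 in NCI-H358 is the only point outside the dashed lines, at -0.96, and the 3 CYP1B1 points in A549 lie together between -0.49 and -0.41.

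Counted by gene, 1 of 7 members was at least 1.5-fold lower with CHST11 in NCI-H358, where 0.272% of 11395 genes were, and 0 were at least 1.5-fold higher, where 0.895% of genes were. The median log2 ratio of the 7 was 0.16, against 0.00 over all genes. On the same arrays TIPARP had -0.17, AHRR 0.05 and CYP1B1 values from -0.07 to 0.20 over 3 probe sets, against -0.96 for CYP1A1, and these differences from CYP1A1 were not tested. In A549, 4 members were measured and 0 differed at least 1.5-fold, where 0.489% of 11448 genes were that much higher and 0.716% lower. By the probe set that stands for each gene, all 4 had ratios below 0, with a median of -0.15 against 0.01 over all genes. The other measured ARNT probe sets were above 0 in A549, at 0.224 for 218222_x_at and 0.035 for 230619_at.

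**Figure D3:**
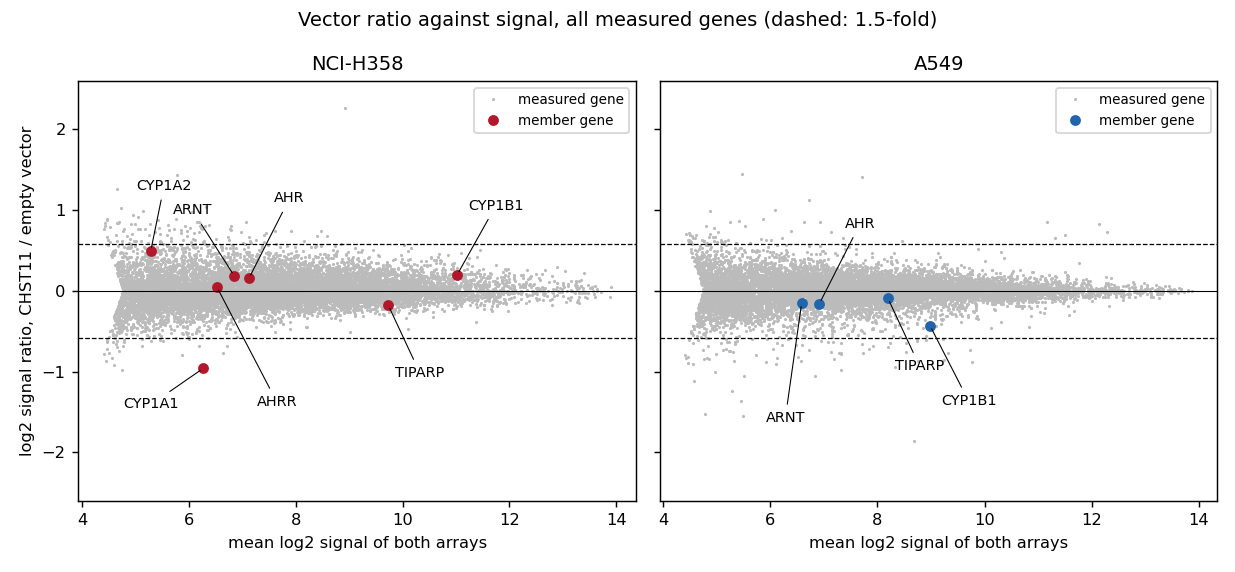
Log2 signal ratio of CHST11 over empty vector against the mean log2 signal of both arrays, for all measured genes (grey) and the member genes (colour), in NCI-H358 (left) and A549 (right), with dashed lines at 1.5-fold. CYP1A1 lies below the grey cloud in NCI-H358 at -0.96. In A549 CYP1B1 lies in the lower part of the cloud at -0.43, with 1.75% of measured genes below it.

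Between the lines, 4 of 7 members were at least 2-fold higher in NCI-H358, where 10.9% of 12271 genes were, and 0 were at least 2-fold lower, where 10.6% were. All 7 had differences above 0, with a median log2 difference of 1.51 against 0.03 over all genes, arrays under the filter being raised to it. For CYP1A1, CYP1A2 and AHRR, under the filter in A549, this raising left no room for a difference below 0. Their signs add nothing to the count. The members were chosen with these values known, so the count is a description. Cell line and culture cannot be told apart from 1 culture per group, and less RNA per cell cannot be told apart from fewer expressing cells.

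The companion genes of the pathway were grouped in 6 lists of 71 genes, of which 47 were measured. The cell line difference was fitted with limma over all 12271 genes, with terms for line and vector, and called at a Benjamini-Hochberg adjusted p of 0.05. This fit called 33.9% of all genes higher and 30.6% lower in NCI-H358, so most genes passed it. Of the 47 companions it called 14 higher and 21 lower. With no filter on low values it called 12 companions and 1905 genes in place of 35 and 7909. The lists are given with these shares as their background, and a fold is written as at least where the dimmer line was raised to the filter.

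Of 14 other AHR target genes measured, 5 were called higher and 7 lower in NCI-H358, with a median log2 difference of -0.17. The aldehyde dehydrogenase ALDH3A1 read 95.85 and 63.92 in NCI-H358 with CHST11 and empty vector against 3598 and 3659 in A549, a log2 difference of -5.54 (SE 0.167, limma adjusted p = 5.73e-05). The retinaldehyde dehydrogenase ALDH1A3 ran the other way, with 2082 and 1877 in NCI-H358 against 116.1 and 180.0 in A549 (13.7-fold, limma adjusted p = 0.000223). The drug efflux pump ABCG2 was 4.55-fold lower and the cytokine IL1B 3.68-fold higher in NCI-H358. NQO1, a quinone reductase under both AHR and NRF2, was 1.87-fold lower, and was picked for mention after its value was seen.

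Among chaperones and other class II partners, 1 of 6 measured genes was called higher and 3 lower. ARNT2, which can stand in for ARNT, was under the filter in NCI-H358 at 10.89 and 14.14, against 140.6 and 115.9 in A549, at least 4.73-fold lower. The clock partners BMAL2 (at least 2.87-fold) and BMAL1 (1.79-fold) were lower as well. The chaperone genes HSP90AB1 and PTGES3 had log2 differences of 0.31 and 0.18, of which the first was called. Among other bHLH-PAS factors, 2 of 7 were called higher and 3 lower, the clock gene PER3 being 4.82-fold and CLOCK 3.15-fold higher, and the developmental factor SIM2 at least 3.59-fold and NPAS2, a relative of CLOCK, 2.14-fold lower in NCI-H358.

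Of 8 coactivators and corepressors measured, 3 were called higher and 1 lower. SMARCA4, the ATPase of a chromatin remodelling complex that AHR recruits, read 908.5 and 877.0 in NCI-H358 against 79.03 and 73.1 in A549, an 11.7-fold difference (log2 3.55, SE 0.088, limma adjusted p = 3.77e-05). The histone deacetylase HDAC1 was 1.64-fold higher, and the coactivator NCOA1 1.59-fold lower. NCOA2, RELB and RB1 were not called, with log2 differences of -0.28, 0.22 and 0.10.

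Enzymes that make or remove tryptophan-derived ligands were called in both directions, 2 higher and 2 lower of 4 measured. IDO1, which opens the kynurenine pathway, read 94.24 and 85.74 in NCI-H358 against 23.17 and 28.03 in A549, at least 3.27-fold higher, and the formamidase AFMID was at least 3.02-fold higher. KYNU, the kynureninase, was 2.65-fold lower, and TDO2, the liver-type dioxygenase, was measured in A549 alone (30.76 and 38.6) and at least 1.28-fold lower in NCI-H358. Of 8 measured microsomal partners and other P450s, 1 was called higher and 5 lower. The vitamin D hydroxylase CYP24A1 was 35.8-fold, CYP4F3 at least 3.06-fold and the electron carrier CYB5A 2.49-fold lower in NCI-H358, and the epoxygenase CYP2J2 was at least 2.16-fold higher. CYP2A6, the nicotine oxidase, was not called, with a log2 difference of -0.12.

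**Figure D4:**
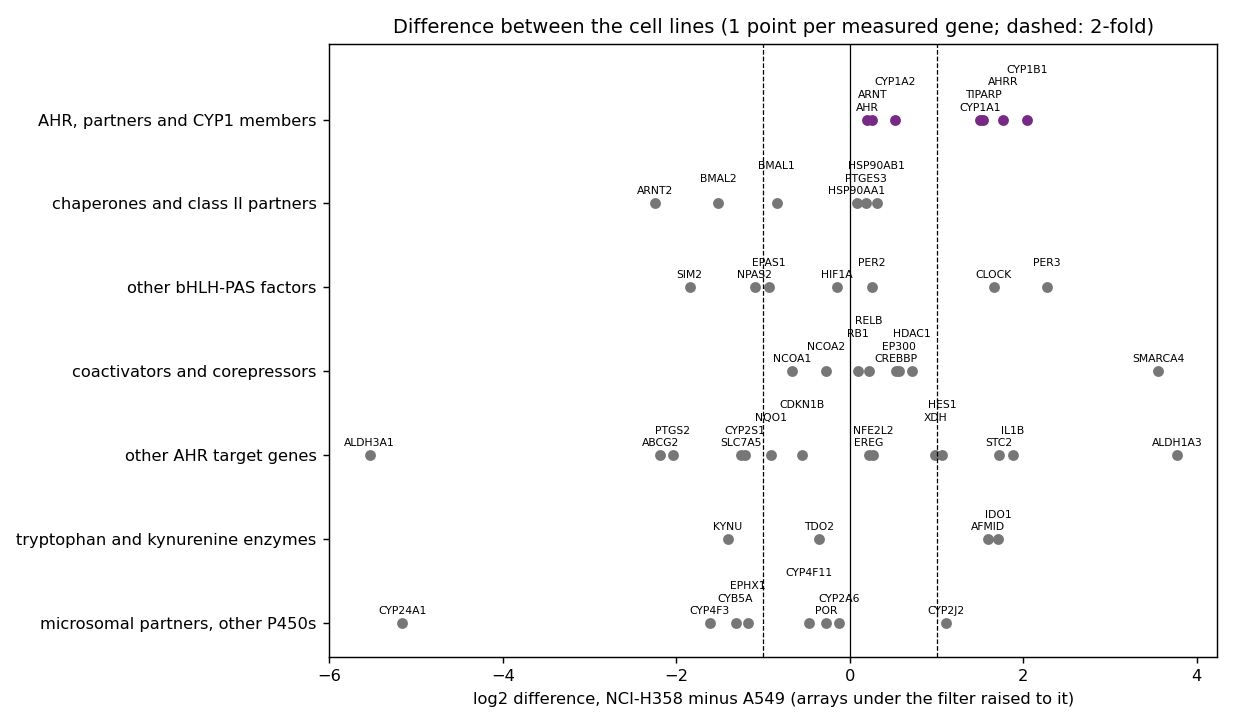
Log2 difference of NCI-H358 minus A549 for the 7 members (top row) and the measured genes of the 6 companion lists, 1 labelled point per gene, with arrays under the filter raised to it and dashed lines at 2-fold. The members all lie above 0, with 4 beyond 2-fold, though CYP1A1, CYP1A2 and AHRR could not lie below 0 with A549 raised to the filter. The companion lists spread to both sides, from -5.54 for ALDH3A1 to 3.77 for ALDH1A3.

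For the vector across both lines, limma called 0 of the 47 companions and 0% of all 12271 genes in either direction, with 374 genes at an unadjusted p under 0.05. With a trend in eBayes it also called 0, with 330. CHST11 itself was not called either, though its probe set 219634_at was 4.8-fold higher in NCI-H358 and 2.66-fold in A549. With 1 residual degree of freedom per gene, the 0 calls do not show that genes failed to respond. In NCI-H358, 0 companions differed at least 1.5-fold. ALDH3A1 came nearest, just under that cut and higher with CHST11, with a log2 ratio of 0.585 against -0.025 in A549. Of 13 other AHR target genes measured in NCI-H358, 7 had ratios above 0 and 6 below. In A549, 2 of 45 measured companions differed at least 1.5-fold, both lower. There 0.716% of all genes were that much lower and long mRNAs had a median of -0.69. The part of that shift was not tested. The 2, named here after their values were seen, were ALDH1A3, with a log2 ratio of -0.63, and the fatty acid hydroxylase CYP4F11, with -0.75. IL1B had log2 ratios of -0.34 in NCI-H358 and -0.40 in A549, and RELB, a subunit of NF-kB that can pair with AHR, -0.38 and -0.24. These values, each of the 1 probe set that stands for the gene, were beyond the SD between probe sets in both lines and passed no test. RELB read 39.43 and 51.13 in NCI-H358 and 35.32 and 41.85 in A549. In A549 IL1B read 29.26 and 38.54, and CYP4F11 28.97 and 48.64. These signals were not far above the filter of 27, and the SD pools genes of all signal levels.

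Distances were taken between centred log2 signals, floored at 16.14, over the 4 arrays. The measured genes most like CYP1A1 were ZNF665, MIR146A, IL1B, LCK and NTN1, at distances of 0.403, 0.416, 0.46, 0.487 and 0.498. In A549, MIR146A (5.334 and 5.011), LCK (7.961 and 8.892) and NTN1 (7.411 and 8.883) lay under the floor. CYP1A1 with CHST11 in A549 (15.32) did too, so the likeness of these genes rests partly on the floor. IL1B read 109.5 and 139.1 in NCI-H358 with CHST11 and empty vector against 29.26 and 38.54 in A549. Among the members, AHRR was nearest to CYP1A1 (0.767, place 140 of 12270 genes), followed by TIPARP (0.782) and CYP1B1 (0.823). The genes most like CYP1B1 were MAML2, GALNT6, OGFRL1, KALRN and ARLNC1, at 0.06 to 0.129, and AHRR stood at place 24 with 0.275. With 4 arrays in 2 lines, likeness of this kind rests mainly on the difference between the lines.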

How the data were processed

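RNA of 4 cultures was labelled with biotin and hybridised to 1-colour Affymetrix arrays with 54675 probe sets. The authors deposited array intensities, never negative and unlogged, from MAS5 per the submitters' processing notes. Its version and scaling target were not given in the sources used here. Groups came from the sample titles, with 1 array each. The 7 members and the gene lists were chosen with earlier results of these data known, and the lists of long mRNAs and mitochondrial genes after the values were seen.

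Values were floored at 16.14, the 50th percentile, before log2 was taken, and the filter was 27, the 60th percentile. A gene was represented by the brightest of its single-symbol probe sets, by mean log2 signal. Of the probe sets, 41097 had 1 symbol, 1801 several and 11777 none in the platform annotation, and 99.9% of the single symbols matched a current RefSeq gene by Entrez ID. Between lines, arrays under the filter were raised to it. Adjusted p-values of such genes rest on floored signals. limma 3.58.1 in R 4.3.3 (lmFit, eBayes) had 1 residual degree of freedom per gene and a prior of 3.54. It was tested on simulated data for a difference between lines only, with the same SD for all genes, and not for the vector. The fit's error for a gene rests on how far the lines differed in vector ratio, moderated by the prior. Its p-values thus cover the spread between these arrays, which may be technical, and not that between repeat cultures.

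Named companions were the 2 highest and 2 lowest of each list between lines and the highest and lowest by mean vector ratio. Alternatives were quantile normalization, median centring, another floor, 2 other filters, the median of probe sets, eBayes with trend and the arrays of 1 vector. Python 3.11.15, NumPy 2.4.6, pandas 2.3.3 and matplotlib 3.10.9 were used.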

Additional observations from a re-analysis of the deposited data

Results flagged for a closer look

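CYP1B1 stood out because its ratio of CHST11 over empty vector had opposite signs in the lines on the probe set that represents it. The log2 ratio was 0.20 in NCI-H358 and -0.43 in A549, each beyond the SD between probe sets of that line. The difference between the lines was not tested, since each had 1 array per vector. The other 2 measured CYP1B1 probe sets had -0.07 and 0.04 in NCI-H358 and -0.49 and -0.41 in A549, so the A549 sign held on 3 of 3 probe sets and the NCI-H358 sign on 2 of 3. Opposite signs were not particular to CYP1B1. AHR had 0.157 in NCI-H358 and -0.156 in A549, and ARNT probe set 218221_at 0.188 and -0.152, not beyond the SD in both lines. The long mRNAs had medians of 0.125 and -0.691.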

How the results depend on the processing

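Over 120 alternative values of the members, 115 moved by less than the SD between probe sets and 0 of those past the fold rule reversed. CYP1A1 in NCI-H358 stayed between -0.98 and -0.93, the only member at least 1.5-fold apart there under each setting, and in A549 the count stayed 0. CYP1A1 has 1 probe set with both NCI-H358 signals above the floor, so only quantile normalization and median centring could move this ratio. With the filter at the 75th percentile, 2 members instead of 4 were at least 2-fold apart between the lines. The bounds of CYP1A1 and AHRR fell to log2 0.15 and 0.08 by construction, as A549 was raised to a higher filter, and CYP1A2 was not measured. Under this filter 44 genes instead of 133 differed 1.5-fold in NCI-H358 and 57 instead of 138 in A549. Taking each gene's median probe set, these counts were 82 and 76, and CYP1B1 in NCI-H358 had -0.01, so its sign there was not settled. With no filter, limma called 1905 genes between the lines instead of 7909, and 12 companions instead of 35. The cause of these changes in calls was not tested. No paired analysis by replicate number was possible because the labels give none, and the vector fit already compared the arrays within each line. Signals near the filter limit CYP1A2 in both lines and CYP1A1 and AHRR in A549.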

Other observations

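The antisense neighbours of the members were all under the filter. The 2 probe sets of CYP1B1-AS1 read 8.34 to 11.47 in NCI-H358 and 5.779 to 7.481 in A549, and that of TIPARP-AS1 read 4.534 to 4.796 over the 4 arrays.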
